A study of Homo sapiens with 4 samples.

Results

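A set of 10 genes of mucosal oxidative and antimicrobial defence was followed in HT-29, a human cell line of colonic epithelium: the oxidase genes DUOX2, DUOXA2 and NOX1, the nitric oxide synthase gene NOS2, and the inflammation marker genes LCN2, S100A8, S100A9, PI3, SAA1 and SAA2. They were chosen by name, and all 10 were found among the 27685 genes of the deposited tables, as 19 transcripts. HT-29 was established from a colorectal adenocarcinoma, and both conditions carried a retroviral pMSCV vector, either the control vector or one encoding N-terminally Myc-tagged TRIM40 (Myc-TRIM40), in stably expressing cells. RNA-seq was performed in 2 independent experiments, each with 1 control and 1 Myc-TRIM40 library, giving 4 libraries in all, and no inflammatory stimulus is named in the labels. TRIM40 itself had 0 reads in both control libraries, and 272646 (experiment 1) and 110665 (experiment 2) in the Myc-TRIM40 libraries.

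The gut epithelium makes reactive oxygen and nitrogen species and secretes antimicrobial proteins at its luminal face. NOX1 is the catalytic subunit of the superoxide-producing oxidase of the colon and works with the organizer NOXO1, the activator NOXA1 and the membrane subunit p22phox, encoded by CYBA. DUOX2 releases hydrogen peroxide and leaves the endoplasmic reticulum only with its maturation factor DUOXA2. NOS2 produces nitric oxide in inflamed mucosa. LCN2 (lipocalin 2) binds bacterial siderophores and so withholds iron. S100A8 and S100A9 form calprotectin, a metal-binding protein complex best known from neutrophils and measured in stool as a marker of gut inflammation. PI3 (elafin) inhibits neutrophil elastase and proteinase 3. SAA1 and SAA2 encode the acute-phase serum amyloid A proteins. Several of these genes are textbook targets of NF-kappaB, C/EBP and STAT factors downstream of cytokines such as IL-17, IL-22, IL-1 and TNF.

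HT-29 cells transcribed a few of these genes. Of the 10, 3 (LCN2, PI3 and NOX1) had enough reads for the gene-wise fit, 2 (DUOX2 and S100A9) had a few reads, and 5 (DUOXA2, NOS2, S100A8, SAA1 and SAA2) had 0 reads in each of the 4 libraries. No member passed the test between Myc-TRIM40 and control cells. By edgeR's quasi-likelihood test, Benjamini-Hochberg adjusted and with the experiment as a block, 0 of the 3 tested members passed an adjusted p under 0.05, where 0.0605% of the 14868 genes tested did. At an unadjusted p under 0.05 the count was 0 of 3 by edgeR, beside 4.54% of all tested genes. By DESeq2 it was 0 of 3 at an adjusted p under 0.05, beside 0.363%. Normalized reads of the control libraries and the Myc-TRIM40 libraries overlapped for 3 of the 3 members, while 20.7% of all tested genes had groups that did not overlap. With 2 libraries per condition, an exact permutation test of a single value cannot give a two-sided p below 0.333 and was not used.

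**Figure D1:**
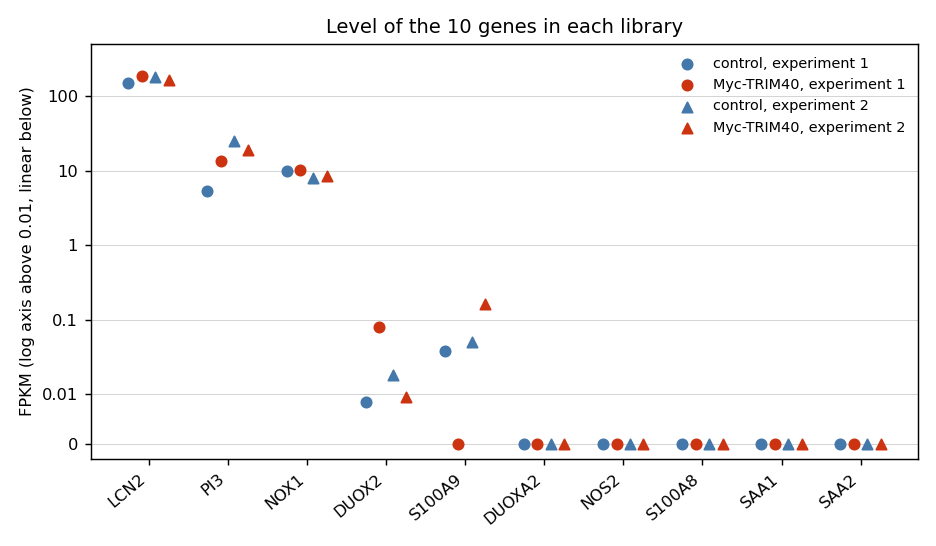
Level of the 10 genes in FPKM (vertical axis, logarithmic above 0.01 and linear below it) in the 4 libraries, with circles for experiment 1, triangles for experiment 2, blue for control and red for Myc-TRIM40. LCN2 sits between 150.8 and 184.5 FPKM, PI3 spreads from 5.26 to 24.8 FPKM, NOX1 sits between 8.04 and 10.1 FPKM, and the other 7 genes lie below 0.2 FPKM or at 0.

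Sequence upstream of the start was at hand for 6 of the 10 genes, in RefSeq coordinates of build GRCh38.p14. It is shown for LCN2 and NOX1, which carried the reads, and for the interval between DUOX2 and DUOXA2, which are transcribed away from each other. Each line runs 5′ to 3′ up to the base before the start (for the DUOX2 and DUOXA2 interval, on the DUOX2 strand). Capitals mark matches on either strand to 5 motifs: the TATA box (TATAAA), AP-1 (TGANTCA), C/EBP (TTGCNNAA), the STAT-binding GAS motif (TTCNNNGAA) and the NF-kappaB consensus.
LCN2, chr9:128149203-128149452, plus strand: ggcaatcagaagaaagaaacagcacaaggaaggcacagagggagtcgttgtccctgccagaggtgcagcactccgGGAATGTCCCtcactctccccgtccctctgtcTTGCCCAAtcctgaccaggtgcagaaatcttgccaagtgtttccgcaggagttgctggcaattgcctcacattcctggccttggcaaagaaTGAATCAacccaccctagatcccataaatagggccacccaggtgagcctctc
NOX1, chrX:100874360-100874609, minus strand: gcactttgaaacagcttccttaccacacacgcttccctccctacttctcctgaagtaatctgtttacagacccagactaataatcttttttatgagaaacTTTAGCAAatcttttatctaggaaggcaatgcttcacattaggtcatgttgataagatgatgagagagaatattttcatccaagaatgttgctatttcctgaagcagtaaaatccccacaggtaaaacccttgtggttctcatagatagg
DUOX2 and DUOXA2, chr15:45114173-45114325, minus strand: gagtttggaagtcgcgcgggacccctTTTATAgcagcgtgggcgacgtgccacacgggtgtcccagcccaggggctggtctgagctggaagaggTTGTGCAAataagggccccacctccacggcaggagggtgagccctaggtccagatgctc
In LCN2 the capitals are, from left to right, an NF-kappaB, a C/EBP and an AP-1 match, which lie 175, 143 and 52 bases before the start. In NOX1 they are 1 C/EBP match 150 bases before the start. In the interval of 153 bases between DUOX2 and DUOXA2 they are a TATA box and a C/EBP match. Among 35116 human promoter windows of 250 bases, the NF-kappaB consensus was present in 9.96%, the C/EBP motif in 9.05%, the AP-1 motif in 6.57%, the TATA box in 10.7% and the GAS motif in 6.57%. Of the 6 members with a sequence, LCN2 alone held the NF-kappaB and AP-1 letters, and none held the GAS letters. These are matches of letters and say nothing about whether a factor bound there in these cells.

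NOX1 was the only oxidase gene of the group with a substantial level. Its locus lies on chromosome X from 100098313 to 100129334 in build hg19, the build named in the submitters' processing notes. NOX1 had 1509 reads in control and 1555 reads in Myc-TRIM40 cells of experiment 1, and 1380 and 1317 reads in experiment 2. In FPKM, that is, reads per kilobase of transcript at a common library total, its levels were 9.84 and 10.1 in experiment 1 and 8.04 and 8.40 in experiment 2, for control and Myc-TRIM40. The 2 libraries within each experiment were closer to each other than the 2 experiments were. The ratio of normalized reads, Myc-TRIM40 to control, was 1.00 in experiment 1, with a 95% counting interval from 0.934 to 1.08, and 0.946 in experiment 2, from 0.876 to 1.02. These intervals cover counting error and not the differences between cultures. Over both experiments the log2 fold change of NOX1 was -0.04 (SE 0.21, n = 2 libraries per condition), with a 95% interval from -0.52 to 0.44 and an adjusted p of 0.983 (edgeR's quasi-likelihood test, Benjamini-Hochberg adjusted). A change of 1.5-fold in either direction lies outside this interval. Its width comes mostly from the spread of other genes, so it cannot by itself exclude such a change.

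The 3 annotated NOX1 transcripts shared these reads unevenly. The transcript of 2382 bases took 47.7% of the NOX1 reads in control and 46.0% in Myc-TRIM40 cells of experiment 1, and 37.3% and 47.8% in experiment 2. The transcript of 2529 bases took 45.4% and 43.5% in experiment 1, and 62.7% and 37.3% in experiment 2. The transcript of 2418 bases took 6.89% and 10.5% in experiment 1, and 0% and 15.0% in experiment 2. The control library of experiment 2 thus stood apart from the other 3 in its split, while its NOX1 total did not stand apart. The transcripts overlap along the whole locus and their reads were divided among them by estimation, so the shares were not tested.

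**Figure D2:**
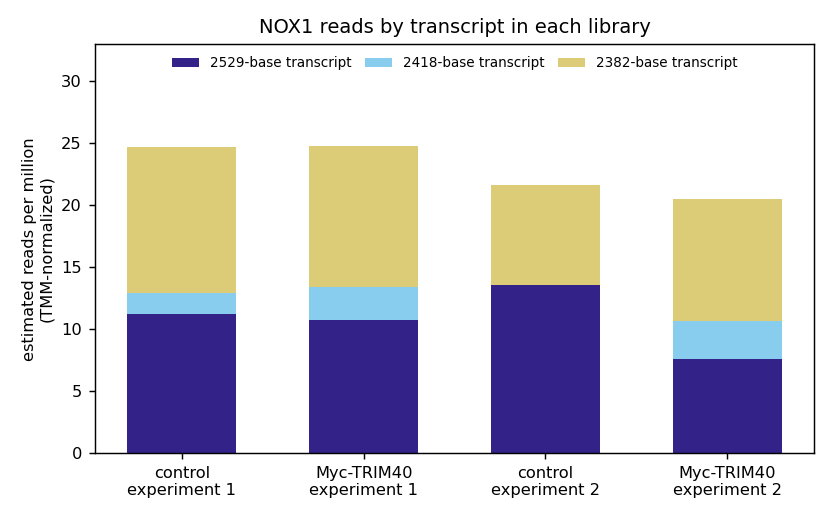
NOX1 reads in TMM-normalized CPM (vertical axis) in each of the 4 libraries, stacked by transcript. The columns reach 24.7 and 24.8 in experiment 1 and 21.7 and 20.5 in experiment 2, and the 2418-base transcript is at 0 in the control library of experiment 2.

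The other components of the NOX1 oxidase were present at very different levels. CYBA, the p22phox gene, was at 321 and 303 FPKM in experiment 1 and at 467 and 341 FPKM in experiment 2, for control and Myc-TRIM40. NOXO1, the organizer, was at 6.88 and 6.94 FPKM in experiment 1 and at 15.2 and 11.1 FPKM in experiment 2. NOXA1, the activator, stayed between 2.28 and 2.53 FPKM in the 4 libraries and overlaps ENTPD8, which had 23 to 58 reads. NOXO1 was thus higher in both libraries of experiment 2 than in both of experiment 1, whereas NOX1 was lower in experiment 2. For none of the 3 did the change with Myc-TRIM40 pass the test. Their log2 fold changes were -0.35 (SE 0.22) for CYBA, -0.31 (SE 0.24) for NOXO1 and -0.08 (SE 0.26) for NOXA1, with adjusted p of 0.888, 0.888 and 0.969 in edgeR's test with Benjamini-Hochberg adjustment.

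DUOX2 was close to the limit of detection. It lies on chromosome 15 from 45384852 to 45406359 (hg19) and had 4 reads in control and 32 reads in Myc-TRIM40 cells of experiment 1, and 8 and 4 reads in experiment 2. These are levels of 0.00835, 0.0804, 0.0182 and 0.00932 FPKM, in the same order. The Myc-TRIM40 library of experiment 1 was therefore high and the other Myc-TRIM40 library was not, and the read count did not qualify for the fit. The ratio of normalized reads was 7.79 in experiment 1, with a 95% counting interval from 2.76 to 30.3, and 0.495 in experiment 2, from 0.109 to 1.85. In experiment 1 the interval lies above 1, but it compares those 2 libraries and not the conditions. The same library was often the highest for scarce genes. Of the 19 listed genes that had reads but too few for the fit, 12 were highest in it, DUOX2 itself counted in both numbers. Among all 3693 such genes in the tables, 1505 were highest in that library, against 898, 651 and 639 in the control library of experiment 1, the control library of experiment 2 and the Myc-TRIM40 library of experiment 2. The part of this in the DUOX2 value was not tested.

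DUOXA2, whose hg19 start lies 163 bases from that of DUOX2 on the opposite strand (chromosome 15, 45406523 to 45410301), had 0 reads in all 4 libraries. At a limit of 3 reads, a count of 0 allows a level of at most 0.0106 to 0.0911 FPKM for the 5 genes at 0, depending on the gene's length and the library's depth. The length used is that of the longest transcript. Shorter ones, such as the 441-base transcript of S100A8, have a higher limit. The 3′ end of DUOXA2 overlaps DUOXA1. The paralogous pair DUOX1 and DUOXA1 was higher in FPKM than DUOX2 and DUOXA2 in each library. DUOX1, the other dual oxidase, had 63 and 106 reads in experiment 1 and 28 and 63 in experiment 2, for control and Myc-TRIM40. DUOXA1, the maturation factor of DUOX1, had 18 and 40 reads in experiment 1 and 6 and 22 in experiment 2. Both were higher in the Myc-TRIM40 library of each experiment, with log2 fold changes of 0.92 (SE 0.41) and 1.43 (SE 0.65), but neither passed the test, at an adjusted p of 0.888 for each (edgeR with Benjamini-Hochberg adjustment). Of all tested genes, 56.8% had a log2 ratio of FPKM + 1 above 0 in experiment 1 and 61.7% in experiment 2. DUOX1 and DUOX2 transcripts were 85.1% identical over 4425 aligned bases, with an identical stretch of 317 bases, so some of their reads could have been assigned to either gene.

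NOS2, on chromosome 17 from 26083792 to 26127555 (hg19), had 0 reads in all 4 libraries. Among the genes that serve it, GCH1, which makes the tetrahydrobiopterin cofactor, had 937 and 1124 reads in experiment 1 and 1451 and 1566 in experiment 2. ASS1, which returns citrulline toward arginine, had 1223 and 1797 reads in experiment 1 and 1789 and 1688 in experiment 2. The cofactor and substrate genes were thus expressed in cells with no NOS2 reads. NOS3, the endothelial-type synthase gene, had 272 and 484 reads in experiment 1 and 263 and 212 in experiment 2. NOS3 overlaps ATG9B, which had at least 10 reads in some library. Of the 23 partner genes of the oxidases and of nitric oxide synthesis, 6 had 0 reads everywhere, 16 were tested, and 0 of the 16 passed an adjusted p under 0.05 by edgeR or an unadjusted p under 0.05. Their median log2 fold change was 0.04, as was that of all tested genes.

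LCN2 was the most abundant gene of the group by far. It lies on chromosome 9 from 130911709 to 130915734 (hg19) and has 1 annotated transcript of 845 bases. LCN2 had 7973 reads in control and 9777 reads in Myc-TRIM40 cells of experiment 1, and 10513 and 8920 reads in experiment 2. Its levels were 150.8 and 184.5 FPKM in experiment 1 and 179.3 and 164.4 FPKM in experiment 2, above 96.9% to 97.8% of all tested genes. The Myc-TRIM40 library was the higher one in experiment 1 and the lower one in experiment 2, and the ranges of the conditions overlapped. The ratio of normalized reads was 1.19 in experiment 1, with a 95% counting interval from 1.16 to 1.23, and 0.841 in experiment 2, from 0.817 to 0.865. Each interval excludes 1, on opposite sides, so counting error was small beside the difference between experiments. Over both experiments the log2 fold change of LCN2 was 0.00 (SE 0.23, n = 2 libraries per condition), with a 95% interval from -0.53 to 0.53 and an adjusted p of 0.999 (edgeR's quasi-likelihood test, Benjamini-Hochberg adjusted). As for NOX1, a change of 1.5-fold in either direction lies outside this interval, with the same limit on its width. In TPM, where each library is brought to an equal total, the log2 ratio of LCN2 was 0.32 in experiment 1 and 0.11 in experiment 2. The sign in experiment 2 thus turns with the scale, since the median log2 ratio of all tested genes there was 0.08 in FPKM + 1 and 0.27 in TPM + 1. Relative to that median, LCN2 was lower on both scales in experiment 2.

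PI3 varied more than any other tested member. It lies on chromosome 20 from 43803540 to 43805185 (hg19), with 1 transcript of 554 bases. PI3 had 183 reads in control and 466 reads in Myc-TRIM40 cells of experiment 1, and 953 and 677 reads in experiment 2. Its levels were 5.26 and 13.4 FPKM in experiment 1 and 24.8 and 19.0 FPKM in experiment 2. Both libraries of experiment 2 were above both of experiment 1, and the lowest and the highest value were the 2 control libraries. The controls differed 4.99-fold in normalized reads, and 2.59% of all tested genes had controls at least as far apart. The log2 ratio of FPKM + 1 was 1.20 in experiment 1 and -0.37 in experiment 2. PI3 was the 1 of 3 tested members past 1.5-fold in experiment 1, where 3.44% of all tested genes were. In experiment 2 it was 0 of 3, beside 11.4% of all tested genes, and 0 of 3 passed 1.5-fold the same way in both experiments, beside 0.545%. The log2 fold change over both experiments was 0.38 (SE 0.40), with a 95% interval from -0.53 to 1.29 and an adjusted p of 0.898 (edgeR with Benjamini-Hochberg adjustment). A level 2-fold higher in Myc-TRIM40 cells lies inside that interval. Without the block for experiment the PI3 value was 0.00038, with an adjusted p of 1.000 by the same test.

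PI3 has neighbours of the same protein family on chromosome 20. SLPI, the secretory leukocyte protease inhibitor, lies 75694 bases away and WFDC2 lies 293208 bases away (hg19). SLPI had 69 and 139 reads in experiment 1 and 303 and 220 in experiment 2, for control and Myc-TRIM40. WFDC2 had 472 and 749 reads in experiment 1 and 732 and 467 in experiment 2. Like PI3, both were higher with Myc-TRIM40 in experiment 1 and lower in experiment 2. The log2 ratios of FPKM + 1 were 0.73 and -0.30 for SLPI and 0.63 and -0.50 for WFDC2. Of all tested genes, 19.4% were above 0 in experiment 1 and below 0 in experiment 2. The pattern was not particular to this family. It was seen in 6 of the 8 tested other antimicrobial genes, SLPI and WFDC2 among them. It was also seen in 10 of the 12 tested S100 genes and 7 of the 12 epithelial markers. The PI3, SLPI and WFDC2 transcripts are short, at 554 to 596 bases. Tested genes of like length had median log2 ratios of -0.36 to -0.34 in experiment 2. Relative to genes of like length, PI3 was at 1.20 in experiment 1 and -0.02 in experiment 2. In experiment 2, SLPI was at 0.06 and WFDC2 at -0.16 on that scale, so the sign of SLPI turned. DEFB1, the constitutive beta-defensin gene, had 11 and 28 reads in experiment 1 and 56 and 29 in experiment 2.

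**Figure D3:**
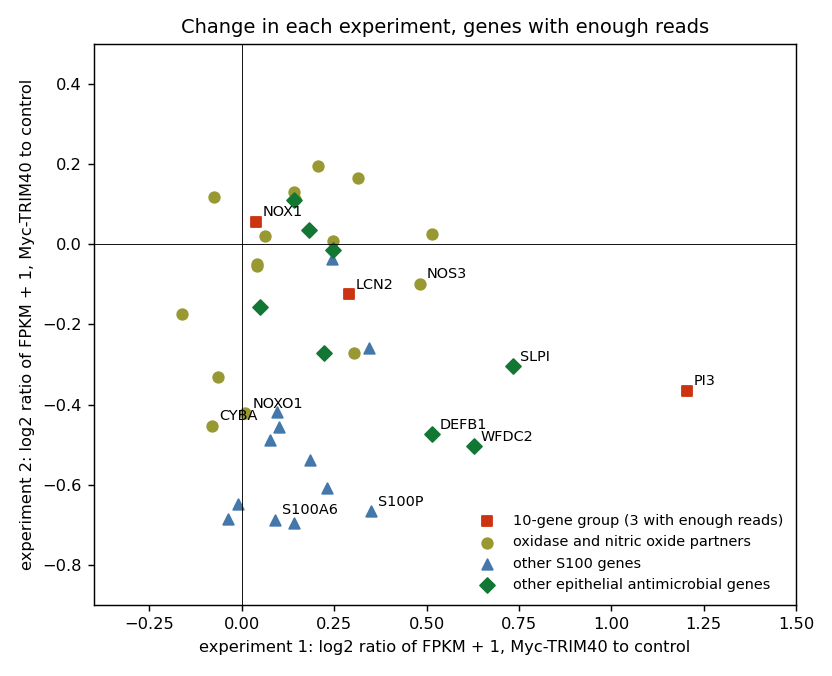
Log2 ratio of FPKM + 1, Myc-TRIM40 to control, in experiment 1 (horizontal) and experiment 2 (vertical) for the 3 tested members (red squares), 16 oxidase and nitric oxide partners (olive circles), 12 other S100 genes (blue triangles) and 8 other antimicrobial genes (green diamonds). PI3 lies farthest to the right at 1.20 with -0.37 in experiment 2, NOX1 lies near 0 on both axes, and the 12 S100 genes lie below 0 in experiment 2.

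The ratios of experiment 2 varied with gene length. Over all tested genes, the median log2 ratio of FPKM + 1 was -0.29 for genes of up to 1000 bases and 0.32 for genes over 4000 bases in experiment 2, against -0.01 and 0.04 in experiment 1. LCN2 and PI3 fall in the shortest class. Against genes of like length, LCN2 was at 0.29 in experiment 1 and 0.20 in experiment 2, and NOX1 was at 0.01 and 0.02. The count of members past 1.5-fold stayed at 1 of 3 in experiment 1 and 0 of 3 in experiment 2 when each ratio was taken relative to genes of like length. What part length plays in the ratios was not tested.

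The calprotectin genes were at or near 0. S100A8, on chromosome 1 from 153362508 to 153395059 (hg19), had 0 reads in all 4 libraries over its 5 transcripts. S100A9, 29004 bases away, had 2 reads in control and 0 reads in Myc-TRIM40 cells of experiment 1, and 3 and 6 reads in experiment 2. Both libraries of experiment 1 were at or under 3 reads and too low to compare. In experiment 2 the ratio was 1.98, with a 95% counting interval from 0.423 to 12.2, which spans 1. The leukocyte markers were mixed. ELANE, CD3E and FCGR3B had 0 reads in all 4 libraries, PTPRC (CD45) had at most 4 reads and MPO at most 6. Of 12 leukocyte markers, 4 had 0 reads everywhere and 4 were tested (CD14, CD68, ITGAM and LYZ). The myeloid marker CD68 had 751 to 1379 reads, CD14 had 148 to 297 and ITGAM had 106 to 390. CD68 and ITGAM had higher FPKM with Myc-TRIM40 in both experiments, at an adjusted p of 0.888 for each (edgeR with Benjamini-Hochberg adjustment). CD14 and LYZ were higher in experiment 1, with log2 ratios of FPKM + 1 of 0.47 and 0.05. Both were lower in experiment 2, at -0.23 and -0.16. In FPKM + 1, 56.8% of all tested genes were higher in experiment 1 and 61.7% in experiment 2. LYZ, which epithelial cells can also make, had 128650 to 195692 reads. All 12 epithelial markers had reads enough for the fit.

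Several other S100 genes were among the abundant transcripts of these cells, while S100A1, S100A3 and S100A5 lay between 0.26 and 2.07 FPKM. Of 20 S100 and serum amyloid relatives, 8 had 0 reads everywhere, among them the antimicrobial S100A7 and S100A12, and 12 S100 genes were tested. S100A6 had the most reads, with 57375 in control and 61198 in Myc-TRIM40 cells of experiment 1, and 108412 and 62236 in experiment 2. S100P had 11775 and 15039 reads in experiment 1 and 14476 and 8428 in experiment 2. For S100A6, S100A10, S100A11, S100A13, S100A14 and S100A16, the control library of experiment 2 had the most normalized reads. The Myc-TRIM40 library of experiment 2 was nearer to those of experiment 1 than to it. The control library of experiment 2 was also the highest for S100A2, S100A3, S100A4 and S100A5. For S100A2, S100A4, S100A5 and S100P, the Myc-TRIM40 library of experiment 2 had the fewest. It also had the fewest for S100A1, but with 10 reads beside 11, 12 and 20 in the others. S100A1 overlaps S100A13, which had 2359 to 4927 reads. In experiment 2 the log2 ratios of FPKM + 1 were below 0 for 12 of the 12, from -0.70 to -0.04, while 38.2% of all tested genes were below 0. Of the 12, 6 were past 1.5-fold lower, beside 2.88% of all tested genes. In TPM + 1, 11 of the 12 were below 0 and 1, S100A5, was past 1.5-fold lower, beside 21.9% and 1.04% of all tested genes. In experiment 1, 10 of the 12 were above 0 in FPKM + 1, beside 56.8% of all tested genes. Genes of like length had medians of -0.36 to -0.16 in experiment 2, and the S100 genes taken relative to these lay between -0.38 and 0.33. The 8 with over 1000 reads in every library lay between -0.38 and -0.06. Only S100A1 (0.33) and S100A3 (0.08) were above 0, with at most 20 and 58 reads in a library. None of the 12 passed an adjusted p under 0.05 or an unadjusted p under 0.05 in edgeR's test, and their median log2 fold change was -0.30, beside 0.04 for all tested genes.

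SAA1 and SAA2 (chromosome 11, 18287772 to 18291523 and 18259780 to 18270221, hg19) had 0 reads in all 4 libraries. The aligned transcripts of the pair were 96.8% identical over 438 bases, so reads from one could have been assigned to the other. Their neighbours SAA4 and the readthrough gene SAA2-SAA4 also had 0 reads, so 0 reads were assigned to the family however they were split. Among 28 other epithelial antimicrobial genes, 11 had 0 reads everywhere, including DEFB4A, REG1A and REG3G, and 8 were tested. None of the 8 passed an adjusted p under 0.05 or an unadjusted p under 0.05 in edgeR's test. LYZ (lysozyme) and REG4 had the most reads of them, REG4 at 21.6 to 28.3 FPKM. The receptor gene for lipocalin 2, SLC22A17, had 0 reads in all 4 libraries.

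Most of the receptors and transcription factors upstream of these genes were expressed, some at very low levels. IL22RA2 had 0 reads in every library, TNFRSF1B had 12 to 36 reads, and IL1R1 was at 0.13 to 0.52 FPKM. Of 24, 23 were tested, 0 passed an adjusted p under 0.05 by edgeR, and 5, among them IL1R1, IL6R, IL6ST and CEBPB, were higher at an unadjusted p under 0.05, beside 3.41% of all tested genes. The median log2 fold change of the 23 was 0.23, beside 0.04 for all tested genes, and gene length was not accounted for. Relative to genes of like length in experiment 2, IL1R1 was at -0.12 and IL6R at -0.05. On that scale IL6ST was at 2.46 and CEBPB at 3.78. In experiment 1, IL1R1 was at 0.31, IL6R at 0.42, IL6ST at 0.62 and CEBPB at 0.74. CEBPB, a C/EBP factor of the acute-phase response, had 2849 and 4925 reads in experiment 1 and 179 and 3906 in experiment 2. IL6ST, the shared gp130 receptor subunit, had 3618 and 6059 reads in experiment 1 and 113 and 4428 in experiment 2. For both genes the control library of experiment 2 stood far below the other 3, and the size of the change rests on it. With experiment 1 alone their log2 ratios of FPKM + 1 were 0.76 and 0.66. CEBPB overlaps CEBPB-AS1, which had 78 to 144 reads. NFKBIZ, a cofactor of NF-kappaB required for LCN2 induction, was at 22.6 and 26.2 FPKM in experiment 1 and 15.6 and 21.1 FPKM in experiment 2. CEBPD was at 8.22 and 10.4 FPKM in experiment 1 and 12.7 and 11.1 FPKM in experiment 2.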

How the data were processed

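RNA of control and Myc-TRIM40 HT-29 cells was sequenced in 2 independent experiments (TruSeq Stranded mRNA kit, NovaSeq), with 2 libraries per condition. For 63714 RefSeq transcripts the authors deposited estimated counts, in whole numbers and not normalized. The authors also deposited FPKM, and for experiment 2 TPM. TPM of experiment 1 was computed here from FPKM. Other deposited values used were transcript lengths and positions. The submitters' processing notes name hg19, HISAT2 2.1.0 and StringTie 1.3.4d, without saying what each did, and the strand setting of the counting is not given in the sources used here. The control libraries held 60954602 and 67424698 reads and the Myc-TRIM40 libraries 61025795 and 62582054. Across the tested genes, log2(FPKM + 1) of the libraries correlated with r between 0.958 and 0.988.

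Transcripts were summed per gene. Genes kept by filterByExpr (14868 of 27685) were tested with edgeR 4.0.16 in R 4.3.3 (glmQLFit and glmQLFTest, TMM, Benjamini-Hochberg), with the experiment as a block, since each file and each replicate number in the labels pairs a control with a Myc-TRIM40 library. The deviations of same-numbered libraries from the mean of their condition correlated at 0.45 across genes. The fit had 1 residual degree of freedom, a median prior of 7.44 and a common dispersion of 0.0484, and was tested on simulated counts with known changes. Nothing says that libraries of a condition came from separately derived lines, so p-values measure the spread between these libraries. Ratios of FPKM + 1 were taken within each experiment, a form that understates the change of low genes, and 1.5-fold was the threshold. Counts of at most 3 reads were taken as the floor. Counting intervals (95%, exact) cover counting error only. All 10 members and the partner genes were named whatever their values, together with listed genes past a threshold, and some results that this rule covers are not reported here. NOS3, GCH1, ASS1, DEFB1, REG4, S100A5, S100A6, S100P, CD14, CD68 and ITGAM were added after their values were seen. The members and lists were chosen with earlier results of these data known. Alternatives were no block, DESeq2 1.42.0, upper-quartile normalization, no filter, limma 3.58.1 on log2(FPKM + 1), each experiment left out, a pseudocount of 0.1, a threshold of 2, TPM, median-centred ratios and all genes of the tables. Ratios relative to genes within 1.5 times the length, and TPM for the other S100 genes, were added after seeing the data.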

Additional observations from a re-analysis of the deposited data

How the results depend on the processing

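The count of members that passed edgeR's test was 0 in every setting tried. The counts past 1.5-fold (1, 0 and 0) were the same in every setting, including ratios relative to genes of like length, which were added after seeing the data. Members too low for the fit could not pass 1.5-fold in FPKM + 1, so taking all genes could not move these counts. The pseudocount of 0.1 was applied to the tested members only. With it, DUOX2 in experiment 1 (log2 ratio 0.74) and S100A9 in experiment 2 (0.80) would be past 1.5-fold, from few reads. Libraries were paired by experiment. Without the replicate block the log2 fold change was -0.0045 for LCN2, -0.034 for NOX1, 0.00038 for PI3 and -0.062 for SLPI, and no listed gene passed the test. Under DESeq2 the count of listed genes that passed moved from 0 to 1. LCN2, at 0.0028, changed sign under DESeq2 (-0.023), upper-quartile normalization (-0.0084) and no filter (-0.00023). With limma on log2(FPKM + 1), NOX1 was at 0.047, WFDC2 at 0.061 and CEBPD at 0.063, with signs opposite to edgeR's. These LCN2, NOX1, SLPI, WFDC2 and CEBPD values were each smaller than the standard error in edgeR's fit with the block. With experiment 1 and experiment 2 alone, in that order, PI3 was at 1.31 and -0.51, LCN2 at 0.26 and -0.25 and NOX1 at 0.0049 and -0.080, with no test. The count of other S100 genes past 1.5-fold lower in experiment 2 moved from 6 to 1 in TPM, a setting added after seeing the data. Adjusted p ranged from 0.821 to 1.000 for PI3, from 0.917 to 1.000 for LCN2 and from 0.955 to 1.000 for NOX1. The serum amyloid genes summed, and S100A8 and S100A9 summed, had too few reads to be tested. Over all genes, edgeR with the block gave 6 higher and 3 lower, and 0 without the block. DESeq2 gave 45 and 9, upper-quartile normalization 5 and 2, no filter 0, and limma 3 higher. The 2 experiments limit every fold change, and the floor of 3 reads limits the genes at 0.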
